A study of Homo sapiens with 8 samples.

Results

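The insulin and IGF signalling genes examined here are 10 genes taken by symbol from the gene table, out of 60658 listed, and each symbol matched a single row. They are the ligand IGF2, the receptors INSR and IGF1R, the receptor adaptors IRS1 and IRS2, and the secreted binding proteins IGFBP2, IGFBP3, IGFBP4, IGFBP5 and IGFBP7. All 10 passed the filter of at least 1 FPKM (fragments per kilobase of transcript, scaled to the mapped total, a level per transcript length) in at least 4 libraries, which left 14334 genes for testing. RNA was sequenced from human iPSC-derived cardiomyocytes (iPSC-CMs) in 8 libraries, 4 for each of the groups H/R and H/R+BA. All cells were kept for 12 h at 1% O2 in low-glucose DMEM free of serum, and then reoxygenated for 12 h. In the H/R group the reoxygenation medium was DMEM with serum, and in the H/R+BA group it was medium conditioned by brown adipocyte (BA) sheets. The sheets were grown from preadipocytes of newborn rats on a polymer fibre scaffold, in medium that held insulin, T3, IBMX, dexamethasone and rosiglitazone during induction and insulin and T3 during maintenance. The sources used here do not state how much insulin was still in the conditioned medium, so the groups differ in whatever the sheets released, used up or carried over. The cells came from 1 iPSC line, and the labels do not say whether the replicates were separate differentiations. The p-values thus set the group difference against the spread of these 8 libraries within their groups, and against no wider spread.

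Insulin and the IGFs act through INSR and IGF1R, closely related receptor tyrosine kinases that recruit IRS1 and IRS2 and switch on PI3K, AKT and mTOR. AKT keeps FOXO transcription factors out of the nucleus, and FOXO factors raise INSR and IRS2 transcription, so the pathway restrains its own receptors. The IGF binding proteins hold IGF1 and IGF2 outside the cell, can block or prolong their action, and are cut by proteases such as the pappalysins. IGFBP7 is a related protein with low affinity for IGFs. In the heart IGF1R and INSR support growth, survival and glucose use, and IGF2 is abundant in fetal tissue.

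Of the 10 genes, 3 were higher in the H/R+BA group (IGFBP3, IGFBP4 and IGFBP5), 2 were lower (INSR and IGF1R) and 5 were not called at an adjusted p of 0.05. Over all tested genes 13.7% were called higher and 11.1% lower, so a called gene was common in this comparison. IGFBP5 had the widest change of the 10, at 2.35 times its H/R mean, and IGF1R the deepest decrease, at 0.672 times. The groups did not overlap in FPKM for these same 5 genes, against 28.6% of all tested genes. The median log2 fold change was 0.09 over the 10 genes and 0.01 over all tested genes, with an absolute median of 0.16 over all. Unless another setting is named, each adjusted p is from limma on log2(FPKM + 1), two-sided, with Benjamini-Hochberg adjustment over the 14334 genes. Each log2 fold change is H/R+BA against H/R on that scale, which understates the change of low genes. Changes of a gene's level given in times or percent are ratios of mean FPKM.

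**Figure D1:**
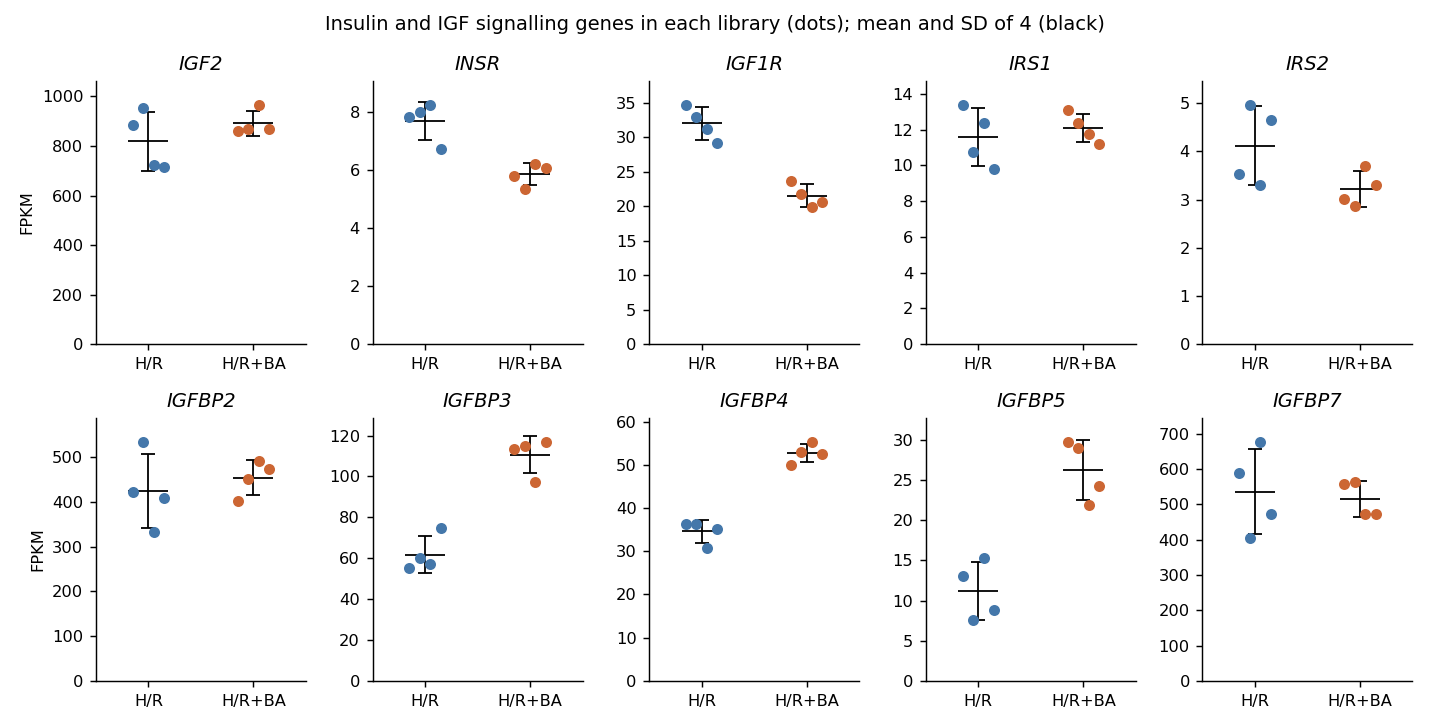
FPKM of the 10 genes (y axis, from 0) by group, a dot for each library and a black bar and whiskers for the mean and SD of 4. INSR and IGF1R sit lower and IGFBP3, IGFBP4 and IGFBP5 higher in the H/R+BA group with no overlap, and the other 5 genes overlap.

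The promoters of the genes that the results turn on are shown to place them in the genome and to compare the receptor side with the binding protein side. RefSeq (GRCh38.p14) gave a window of 250 bases upstream of a transcription start for 8 of the 10 genes, and 6 are printed. The files use GRCh38.p5, an earlier patch of the same assembly. Capitals mark, on either strand, a GC box (GGGCGG), the core of an insulin response element (TGTTTTG) and a TATA-like element, which is TATAAA, the variant TATATA or the variant TATTTAA. The windows are chr19:7294415-7294664 on the minus strand for INSR, chr15:98648289-98648538 on the plus strand for IGF1R, chr13:109786584-109786833 on the minus strand for IRS2, chr7:45921273-45921522 on the minus strand for IGFBP3, chr17:40443200-40443449 on the plus strand for IGFBP4 and chr2:216695550-216695799 on the minus strand for IGFBP5.
INSR: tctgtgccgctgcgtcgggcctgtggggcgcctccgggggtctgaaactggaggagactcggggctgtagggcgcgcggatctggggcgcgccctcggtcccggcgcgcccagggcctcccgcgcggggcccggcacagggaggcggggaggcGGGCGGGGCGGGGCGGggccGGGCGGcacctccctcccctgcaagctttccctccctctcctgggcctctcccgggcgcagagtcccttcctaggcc
IGF1R: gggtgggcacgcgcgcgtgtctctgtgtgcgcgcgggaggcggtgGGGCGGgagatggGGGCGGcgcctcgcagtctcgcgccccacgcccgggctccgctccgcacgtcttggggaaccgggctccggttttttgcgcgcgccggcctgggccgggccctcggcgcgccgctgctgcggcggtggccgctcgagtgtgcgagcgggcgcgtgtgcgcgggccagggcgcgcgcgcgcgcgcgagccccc
IRS2: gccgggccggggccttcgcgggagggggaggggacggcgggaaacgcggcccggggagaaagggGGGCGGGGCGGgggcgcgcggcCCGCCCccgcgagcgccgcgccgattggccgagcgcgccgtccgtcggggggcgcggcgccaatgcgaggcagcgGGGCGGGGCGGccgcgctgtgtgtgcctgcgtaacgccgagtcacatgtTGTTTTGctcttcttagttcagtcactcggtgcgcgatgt
IGFBP3: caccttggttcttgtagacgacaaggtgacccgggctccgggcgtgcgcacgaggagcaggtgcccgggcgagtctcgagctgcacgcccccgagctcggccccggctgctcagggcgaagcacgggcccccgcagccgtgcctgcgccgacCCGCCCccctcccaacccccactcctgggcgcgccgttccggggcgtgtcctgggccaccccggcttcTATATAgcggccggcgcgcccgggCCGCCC
IGFBP4: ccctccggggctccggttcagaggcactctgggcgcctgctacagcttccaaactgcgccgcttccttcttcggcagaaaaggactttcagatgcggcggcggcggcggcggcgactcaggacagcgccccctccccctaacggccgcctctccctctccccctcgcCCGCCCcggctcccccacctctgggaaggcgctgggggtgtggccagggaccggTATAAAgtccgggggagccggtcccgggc
IGFBP5: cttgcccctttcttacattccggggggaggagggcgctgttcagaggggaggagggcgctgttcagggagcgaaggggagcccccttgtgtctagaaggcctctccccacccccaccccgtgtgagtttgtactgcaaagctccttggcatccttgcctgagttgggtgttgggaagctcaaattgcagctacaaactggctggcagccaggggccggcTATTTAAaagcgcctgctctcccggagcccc
The receptor and adaptor windows were rich in G and C, at 78.4% for INSR, 81.2% for IGF1R, 80.8% for IRS1 and 76.4% for IRS2, against a median of 58.0% over 35116 promoter windows. They held 4 GC boxes in INSR, 2 in IGF1R, 4 in IRS1 and 5 in IRS2, counting overlapping matches, and no TATA-like element. The windows of IGFBP3, IGFBP4 and IGFBP5 had 76%, 71.6% and 61.2% G and C, with 2, 1 and 0 GC boxes. Those of IGFBP2 had 56.8%, 69.2% and 56.4%, with 1, 1 and 0 GC boxes. High G and C content and GC boxes were thus not particular to the receptor side. IGFBP3, IGFBP4 and IGFBP5 held 1 TATA-like element each, starting 30 bases before the start in IGFBP3, 29 in IGFBP4 and 31 in IGFBP5, and the 3 windows of IGFBP2 held none. Of all windows 15.6% held such an element, 42.6% a GC box and 4.30% the insulin response core. TATATA and TATTTAA were added to the letters searched after these windows had been read. The insulin response core lay 40 bases before the start in IRS2 and in no other window of the 8 genes, and the FOXO motif TGTTTAC was on neither strand of any of them, against 2.98% of all windows. The matches are a description of letters and not of bound sites.

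IGF2 was by far the dominant IGF transcript in these cells and did not change detectably. IGF2, the fetal growth factor that binds IGF1R and one form of INSR, read 885, 953, 722 and 716 FPKM in H/R replicates 1 to 4 and 862, 870, 966 and 869 in H/R+BA replicates 1 to 4. The H/R+BA values all fell within or just above the H/R range, so the groups overlapped. The log2 fold change was 0.13 (95% interval -0.09 to 0.35, adjusted p = 0.361), and IGF2 ranked 83 among the tested genes by mean FPKM. IGF2 lies at 11:2129112-2158391 on the minus strand and overlaps the antisense gene IGF2-AS, which had a mean of 2.36 FPKM in H/R and 2.54 in H/R+BA. The sources used here do not state whether counting used strand, so a small part of either value could belong to the other gene. The INS gene was listed at 0 in all 8 libraries. IGF1, the other ligand, stayed under the filter, with 0.198 to 0.709 FPKM in H/R and 0.567 to 0.987 in H/R+BA.

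Both signalling receptors were lower in the H/R+BA group, while the clearance receptor IGF2R was not called. IGF1R, the receptor for IGF1 and IGF2, read 34.7, 32.96, 31.1 and 29.2 FPKM in H/R and 23.7, 21.8, 19.9 and 20.6 in H/R+BA. Every H/R+BA library was below every H/R library. Its mean fell from 32.01 ± 2.35 to 21.5 ± 1.67 FPKM (SD, n = 4 each), with a log2 fold change of -0.55 (SE 0.07, adjusted p = 0.00105). INSR, the insulin receptor, read 7.81, 7.98, 8.23 and 6.72 FPKM in H/R and 5.80, 5.33, 6.21 and 6.05 in H/R+BA. These groups did not overlap either, though H/R replicate 4 lay close to H/R+BA replicate 3. INSR fell from 7.69 ± 0.667 to 5.85 ± 0.382 FPKM (log2 fold change -0.34, SE 0.08, adjusted p = 0.0134), and on the deposited normalized counts the log2 fold change was -0.48 (adjusted p = 0.00203).

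IGF1R was the more abundant signalling receptor per length, with 3.78 to 4.44 times the INSR level in the H/R libraries and 3.21 to 4.09 times in the H/R+BA libraries. IGF2R, which carries IGF2 to the lysosome without signalling through IRS proteins, had means of 40.6 ± 2.66 and 40.4 ± 2.14 FPKM. Its log2 fold change was -0.01 (95% interval -0.14 to 0.13, adjusted p = 0.951), so a change as deep as that of IGF1R lay outside its interval. INSRR, the insulin receptor-related receptor, was under the filter, at 0.0796 to 0.137 FPKM over the 8 libraries.

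The receptor adaptors did not pass the test. IRS1, the docking protein that passes the signal to PI3K, read 13.4, 10.7, 12.4 and 9.82 FPKM in H/R and 13.1, 12.4, 11.8 and 11.2 in H/R+BA. The H/R+BA values lay inside the H/R range (log2 fold change 0.06, 95% interval -0.15 to 0.28, adjusted p = 0.659). IRS2, the second docking protein and a FOXO target gene, read 3.53, 4.96, 3.30 and 4.66 FPKM in H/R and 3.02, 2.86, 3.69 and 3.31 in H/R+BA. H/R replicates 2 and 4 stood above all other libraries, and the remaining libraries overlapped. The log2 fold change of IRS2 was -0.27 (SE 0.12, 95% interval -0.54 to 0.01, adjusted p = 0.139).

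IGFBP3, IGFBP4 and IGFBP5 rose in the H/R+BA group. IGFBP3, the main carrier of IGFs in serum, read 55.2, 60.0, 57.0 and 74.9 FPKM in H/R and 113, 115, 97.3 and 117 in H/R+BA. The lowest H/R+BA library stood well above the highest H/R library. IGFBP3 rose from 61.8 ± 8.97 to 110.6 ± 9.02 FPKM, 79.1% higher, with a log2 fold change of 0.84 (SE 0.10, adjusted p = 6.74e-04). IGFBP4, which blocks IGF action until it is cut by pappalysin, read 36.3, 36.4, 30.8 and 35.2 FPKM in H/R and 50.1, 53.0, 55.4 and 52.6 in H/R+BA. The libraries of each group lay close together and far from the other group. IGFBP4 rose from 34.7 ± 2.65 to 52.8 ± 2.17 FPKM (log2 fold change 0.59, SE 0.06, adjusted p = 4.78e-04).

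IGFBP5, a binding protein that attaches to the extracellular matrix, read 13.1, 7.57, 15.4 and 8.80 FPKM in H/R and 29.8, 29.1, 21.97 and 24.3 in H/R+BA. The groups did not overlap, but each group split into a pair of higher and a pair of lower libraries. IGFBP5 rose from 11.2 ± 3.64 to 26.3 ± 3.78 FPKM, with a log2 fold change of 1.20 (SE 0.20, 95% interval 0.76 to 1.64, adjusted p = 0.00268). Only 51 of the 14334 tested genes had a larger absolute log2 fold change.

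IGFBP2 and IGFBP7, the most abundant binding proteins, were not called. IGFBP2, a binding protein of fetal tissue and liver, read 421, 534, 333 and 408 FPKM in H/R and 402, 450, 490 and 473 in H/R+BA. The H/R libraries spread wider than the H/R+BA libraries and spanned them (log2 fold change 0.11, 95% interval -0.17 to 0.40, adjusted p = 0.547). IGFBP7 read 589, 404, 677 and 473 FPKM in H/R and 557, 563, 471 and 473 in H/R+BA. The H/R range again held every H/R+BA library (log2 fold change -0.03, 95% interval -0.36 to 0.30, adjusted p = 0.900).

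Among the binding proteins outside the 10 genes, 1 rose and the others were not called. IGFBP6, which prefers IGF2, read 27.1, 23.95, 22.3 and 24.6 FPKM in H/R and 36.9, 35.8, 31.9 and 32.6 in H/R+BA, with no overlap. Its log2 fold change was 0.47 (SE 0.07, adjusted p = 0.00201). IGFBP1, a liver-type binding protein that insulin represses, read 18.6, 38.4, 18.3 and 26.9 FPKM in H/R and 14.4, 18.3, 24.99 and 21.9 in H/R+BA. The groups overlapped (log2 fold change -0.31, 95% interval -0.84 to 0.22, adjusted p = 0.369). IGFBPL1 had means of 1.66 and 1.56 FPKM (adjusted p = 0.846), and IGFALS, the acid-labile subunit that joins IGFBP3 in serum complexes, was under the filter at 0.212 to 0.378 FPKM.

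**Figure D2:**
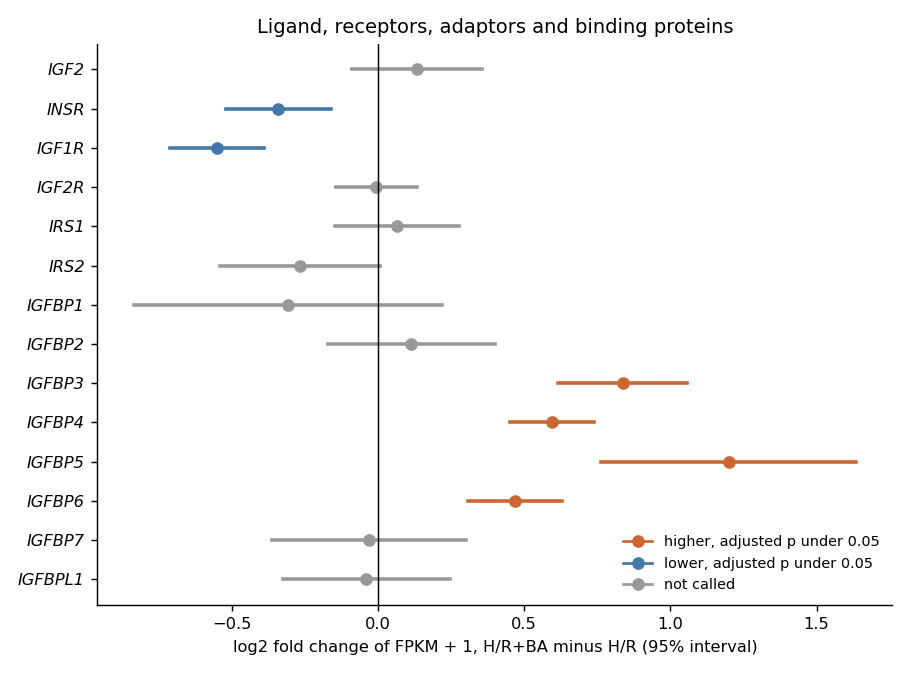
Log2 fold change of FPKM + 1 (x axis, H/R+BA minus H/R, dot) with its 95% interval (line) for the ligand, receptors, adaptors and binding proteins that passed the filter. IGFBP3, IGFBP4, IGFBP5 and IGFBP6 lie to the right of 0 and INSR and IGF1R to the left, and the intervals of the other 8 genes cross 0.

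The binding protein transcripts were summed in each library to describe the size and make-up of the pool. The summed FPKM of IGFBP1 to IGFBP7 was 1051 to 1160 in the H/R libraries and 1193 to 1264 in the H/R+BA libraries. IGFBP2 and IGFBP7 together made up 83.8% to 87.5% of that sum in H/R and 79.2% to 80.6% in H/R+BA. IGFBP3, IGFBP4, IGFBP5 and IGFBP6, the binding proteins called higher, together made up 10.9% to 13.7% in H/R and 17.3% to 19.1% in H/R+BA. Their summed level was 125.5 to 143.5 FPKM in H/R and 206.6 to 232.6 FPKM in H/R+BA. As these genes were each called higher, their higher share and sum follow from the choice of genes. IGFBP2 and IGFBP5 are neighbours on chromosome 2, facing each other across 7668 bases, and IGFBP1 and IGFBP3 are neighbours on chromosome 7, facing each other across 18584 bases (GENCODE 44, GRCh38). In both pairs 1 gene rose and its neighbour was not called.

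**Figure D3:**
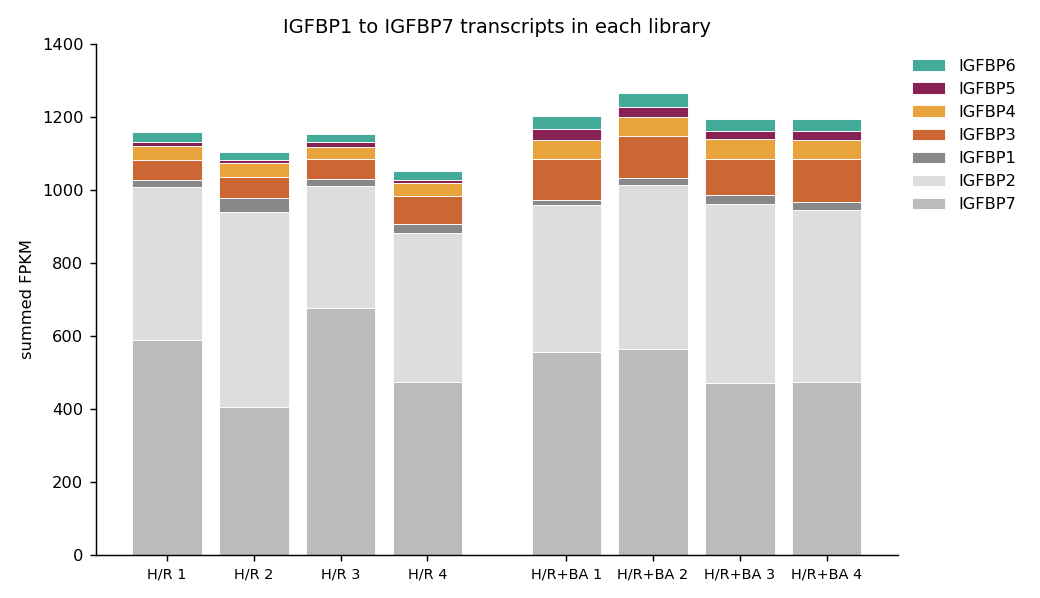
Summed FPKM of IGFBP1 to IGFBP7 (y axis, from 0) in each of the 8 libraries (x axis), stacked by gene. The grey blocks of IGFBP7, IGFBP2 and IGFBP1 trade places between libraries of a group, and the coloured blocks of IGFBP3 to IGFBP6 are taller in all 4 H/R+BA libraries.

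The spread within groups followed a common pattern for some of the 10 genes. As the identity check, all 14 cardiomyocyte markers were expressed, and their summed level was 15445 to 24220 FPKM in H/R and 18299 to 22670 in H/R+BA, but 11 of 11 hepatic and endoderm markers (such as AFP and SERPINA1) were also above the filter. Their summed level was 2531, 5119, 1827 and 3913 FPKM in H/R replicates 1 to 4 and 2544, 2836, 4213 and 3844 FPKM in H/R+BA replicates 1 to 4. H/R replicates 2 and 4 and H/R+BA replicates 3 and 4 were thus the libraries with more hepatic transcript, and cardiomyocyte markers were lower in these 4 libraries. In bulk RNA, fewer cells of a type and less RNA per cell cannot be told apart.

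IGFBP7 and IGFBP5 were lower within each group in the libraries with more hepatic transcript, IRS2 and IGFBP1 were higher there in both groups, and IGFBP2 was higher there in H/R+BA. When the mean level of the hepatic and endoderm markers was added to the fit as a covariate, an alternative chosen after the data were seen, the residual SD of IGFBP7 fell to 0.143 times its value without it, that of IGFBP5 to 0.149 times and that of IRS2 to 0.298 times. The median over all tested genes was 0.927 times, and 0.258% of them had a ratio as low as that of IGFBP7. For INSR, IGF1R and IGFBP3 the ratio was 1.09, 1.02 and 1.07. With this covariate 4997 of the 14334 tested genes were called, against 3546 without it. The log2 fold change of IGFBP5 was then 1.37 (adjusted p = 1.61e-06), and IRS2 was called lower at -0.36 (adjusted p = 0.00461). IGFBP1 was called lower as well, at -0.51 (adjusted p = 0.00141), and the other 9 of the 10 genes kept their calls. The marker list itself was called in 1 of 11 genes between the groups, SOX17, which was higher. The median log2 fold change of the list was 0.24, against 0.01 over all tested genes. The covariate was thus not level between the groups, so it can shift a fold change as well as narrow the spread. SOX17, listed as an endoderm factor, did not follow AFP within H/R. It was lowest in H/R replicate 2, at 4.85 FPKM, where AFP was highest, at 968 FPKM.

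**Figure D4:**
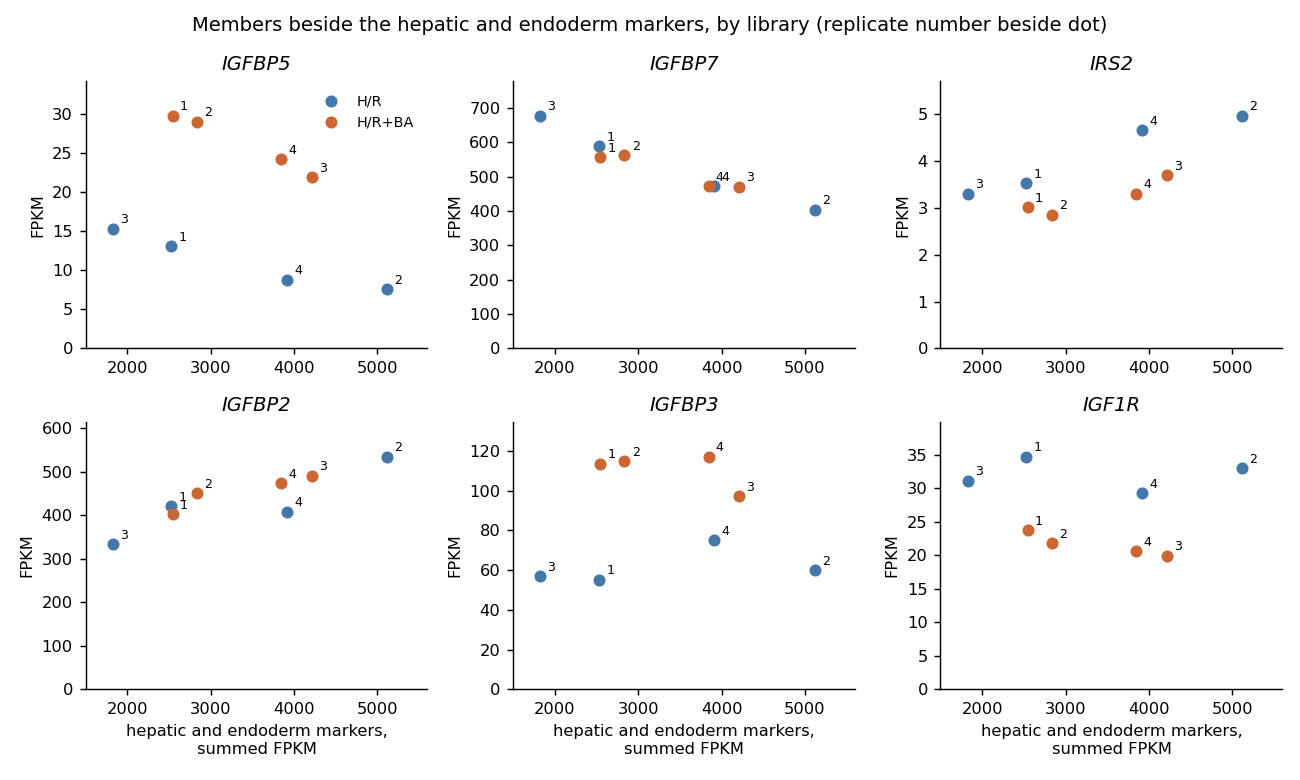
FPKM of 6 genes (y axes, from 0) against the summed FPKM of the hepatic and endoderm markers (x axes) in the 8 libraries, blue for H/R and orange for H/R+BA, with the replicate number beside each dot. IGFBP5 and IGFBP7 go down and IGFBP2 goes up from left to right within each group apart from small swaps. IGFBP3, IGF1R and also IGFBP5 separate by group.

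Markers of other cell types moved with the groups beside these genes. The counts below stand beside 13.7% called higher and 11.1% called lower over all tested genes. Of the endothelial list 6 of 8 tested genes were higher in H/R+BA, TEK among them, which passed the filter only through the H/R+BA libraries, and the summed level of the list was 93.9 to 108.3 FPKM in H/R and 138.5 to 162.7 in H/R+BA. VWF and CLDN5 were near 0, with H/R+BA means of 0.0767 and 0.0352 FPKM. Of the fibroblast list 4 of 10 tested genes were higher (THY1, DDR2, POSTN and DCN), with sums of 491.0 to 777.3 and 709.6 to 919.2 FPKM, and TCF21 had an H/R+BA mean of 0.0814 FPKM. Of the pluripotent list all 4 tested genes of 7 were higher (POU5F1, LIN28A, DPPA4 and ZFP42), with sums of 5.28 to 6.12 FPKM in H/R and 13.9 to 17.5 FPKM in H/R+BA, although LIN28A passed the filter only through the H/R+BA libraries, and NANOG had an H/R+BA mean of 0.0208 FPKM. Of the smooth muscle list 1 of 7 was lower, MYH11, which passed the filter only through the H/R libraries, and the sums overlapped, at 2346 to 3414 FPKM and 2301 to 2684 FPKM. Fibroblasts and endothelial cells express IGFBP3, IGFBP4 and IGFBP5 in many tissues, and the part of these cell types in the results was not tested. Of the adipocyte list 1 of 9 genes passed the filter, LIPE, with an adjusted p of 0.407, ADIG was listed at 0 in all libraries, and the highest ADIPOQ value was 0.0128 FPKM.

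By the smallest mean absolute difference of centred log2(FPKM + 1) over the 8 libraries, the genes most like IGFBP5 were SRL (0.10), APOBEC2 (0.13) and DHRS9 (0.14), against a median of 0.60 over all tested genes. SRL encodes sarcalumenin, a calcium-binding protein of the sarcoplasmic reticulum, and APOBEC2 is a gene of heart and skeletal muscle. Most like IGFBP3 were ARSI (0.07), NNMT (0.08) and MALL (0.09), with a median of 0.42 over all genes. Most like IGFBP4 were TRIP6 (0.04), LAPTM5 (0.05) and OTUB2 (0.05), with a median of 0.30. As examples of the group means, APOBEC2 was at 47.2 FPKM in H/R and 92.3 in H/R+BA, and TRIP6 at 18.3 and 29.2. The likeness rests on the same 8 libraries and is a description.

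The wider pathway was counted on lists of genes, 137 in all with the 10 genes included, of which 124 were tested. Over these, 21 were higher and 22 lower, and without the 10 genes 18 of 114 were higher and 20 lower. Some genes are in more than 1 list, and these totals count each gene once. Over all tested genes 13.7% were called higher and 11.1% lower, the shares to set beside each list count. The median over these 114 was -0.01 on the log2 scale. Proteases that cut the binding proteins and their inhibitors had 3 of 10 higher and 2 lower, or 2 higher without any single H/R+BA library, when PAPPA2 was no longer tested. STC2, stanniocalcin 2, an inhibitor of pappalysins, read 97.3, 80.6, 92.7 and 103.9 FPKM in H/R and 183.6, 181.7, 165.4 and 176.6 in H/R+BA. The groups were far apart, with a log2 fold change of 0.92 (SE 0.08, adjusted p = 1.99e-04). STC1, a related pappalysin inhibitor, rose from 18.9 ± 1.33 to 27.1 ± 2.83 FPKM (adjusted p = 0.00295). PAPPA2, a pappalysin, had means of 0.827 ± 0.123 and 1.41 ± 0.143 FPKM (adjusted p = 0.0127), but it passed the filter only through its 4 H/R+BA libraries, so the filter itself favoured a higher call, and with no filter its adjusted p was 0.0392. PAPPA, the pappalysin that cuts IGFBP4, had means of 18.8 and 19.9 FPKM (adjusted p = 0.680). ADAM9 was lower by 10.9% (adjusted p = 0.0260), a call lost without H/R replicate 3 (0.0527) and without H/R+BA replicates 1 (0.0722), 2 (0.0691) or 3 (0.0763). The number lower in this list was 0 without H/R replicate 3 or H/R+BA replicates 1 or 3, and 1 without H/R replicate 4 or H/R+BA replicate 2.

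Of the other receptor adaptors, 1 of 9 was called, the adaptor SHC1, which links receptors to the RAS pathway and rose from 77.0 ± 4.61 to 96.7 ± 2.01 FPKM (adjusted p = 0.00243). Without H/R replicate 2, 1 adaptor was called lower. None of the 4 tested genes of the IGF2 locus and of its mRNA-binding proteins was called by limma, nor passed an unadjusted p of 0.05, and IGF2BP1, IGF2BP2 and IGF2BP3, which bind IGF2 mRNA, moved on the log2 scale by 0.13, 0.08 and -0.07. Among brakes on insulin signalling 1 of 19 was higher and 3 were lower. TRIB3, a pseudokinase that binds AKT, read 8.38, 11.2, 6.81 and 11.2 FPKM in H/R and 18.5, 18.5, 20.1 and 20.3 in H/R+BA. No library overlapped, and the log2 fold change was 0.99 (SE 0.14, adjusted p = 0.00127). PTPN2, a phosphatase of the insulin receptor, was lower by 0.51 on the log2 scale (adjusted p = 0.00277). TSC2 was lower (adjusted p = 0.0194) but not without H/R replicate 1 (0.0501) or H/R+BA replicates 1 (0.0590) or 4 (0.0502). SOCS3 was lower (adjusted p = 0.0323) but not without H/R replicates 2 (0.0642) or 3 (0.0665) or H/R+BA replicates 2 (0.0828), 3 (0.0822) or 4 (0.0727). Without H/R replicate 2 the number of brakes higher was 2, and without H/R+BA replicate 4 the number lower was 1. On the deposited normalized counts 5 brakes were lower.

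The PI3K, AKT and mTOR effectors had 8 of 21 genes lower and 1 higher, against 11.1% lower and 13.7% higher over all tested genes. Their median on the log2 scale was -0.16. The number lower was 5 without H/R+BA replicate 1 or 2, and the number higher 2 without H/R replicate 3 or H/R+BA replicate 4. PIK3CA, a catalytic subunit of PI3K, fell from 10.8 ± 0.896 to 6.75 ± 1.28 FPKM (log2 fold change -0.62, adjusted p = 0.00561). MTOR fell from 16.6 ± 0.517 to 13.95 ± 0.334 FPKM (adjusted p = 0.0104). EIF4EBP1, the translation repressor that mTOR inactivates, rose from 67.7 ± 7.002 to 84.8 ± 2.15 FPKM (adjusted p = 0.0104).

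The list named insulin-regulated glucose uptake also holds genes of glycogen and of glucose phosphorylation, and 3 of its 15 tested genes were higher and 1 lower. PYGM, muscle glycogen phosphorylase, rose from 28.8 ± 4.06 to 49.3 ± 4.58 FPKM (log2 fold change 0.76, adjusted p = 0.00118). SLC2A1, the basal glucose transporter, read 339, 459, 310 and 349 FPKM in H/R and 455, 573, 501 and 567 in H/R+BA, so that only H/R replicate 2 reached the H/R+BA range (log2 fold change 0.53, adjusted p = 0.0122). HK2, hexokinase 2, rose from 27.1 ± 2.06 to 34.2 ± 1.57 FPKM (adjusted p = 0.00596). STXBP3, which acts in vesicle fusion, was lower (adjusted p = 0.0378), a call lost without H/R replicates 1, 3 or 4 or H/R+BA replicates 2 or 4, with adjusted p up to 0.103, which left 0 genes lower, while 4 were lower without H/R replicate 2. The higher genes do not include SLC2A4, the insulin-responsive transporter, which was under the filter, with means of 0.602 and 1.26 FPKM.

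FOXO target genes, which insulin represses, went both ways, with 6 of 23 tested genes higher and 7 lower, INSR among the latter. KLHL24 fell from 15.8 ± 0.908 to 11.6 ± 0.640 FPKM (adjusted p = 0.00206) and TRIB1 from 54.8 ± 6.69 to 41.2 ± 2.70 FPKM (adjusted p = 0.0103). CITED2 rose from 40.0 ± 3.19 to 51.7 ± 1.26 FPKM (adjusted p = 0.00296) and BNIP3, a mitophagy receptor, from 170.8 ± 2.79 to 211.4 ± 19.5 FPKM (adjusted p = 0.00924). The number higher was 2 without H/R+BA replicate 1 and 3 without H/R+BA replicate 2, 3 or 4, and the number lower was 4 without H/R+BA replicate 1 or 2. Of 18 insulin-induced genes 4 were higher and 2 lower, or 1 lower without H/R replicates 1 or 4 or H/R+BA replicates 3 or 4, and 4 lower without H/R replicate 3. HK2 and SLC2A1 were among the higher genes here, and their calls are the same as those in the glucose uptake list. EGR1, an immediate early transcription factor, read 13.6, 15.1, 12.8 and 15.98 FPKM in H/R and 4.93, 5.11, 5.13 and 5.39 in H/R+BA. It had the deepest decrease of all listed pathway genes (log2 fold change -1.32, SE 0.08, adjusted p = 4.57e-05). PPP1R3C, which targets a phosphatase to glycogen, rose from 55.3 ± 8.62 to 91.2 ± 4.601 FPKM (adjusted p = 0.00111).

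**Figure D5:**
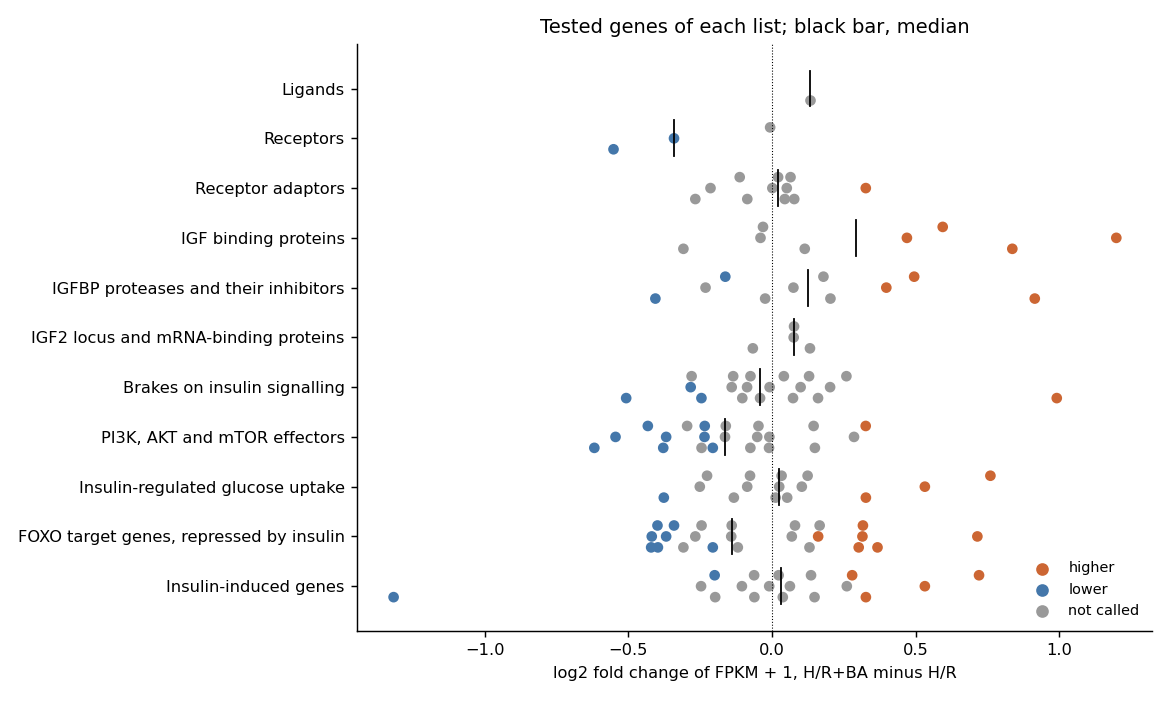
Log2 fold change of FPKM + 1 (x axis, H/R+BA minus H/R) of each tested gene in 11 pathway lists (rows), orange for higher, blue for lower and grey for not called, with a black bar at the median of the list. Called genes lie on both sides of 0 in 6 lists, and the PI3K, AKT and mTOR effectors have 8 blue dots and 1 orange dot.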

How the data were processed

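RNA was sequenced in 8 libraries of iPSC-CMs, 4 per group, as grouped by the sample labels. Per the labels and methods, the authors made stranded mRNA libraries, used Trimmomatic 0.39 for trimming, HISAT2 2.1.0 with GRCh38.p5 for mapping, and featureCounts 2.0.6 and Cuffdiff 2.2.1. Which gene annotation was used the sources used here do not state. The deposited table holds normalized FPKM for each library and, as signal values, normalized counts that the authors had scaled between libraries. These were not whole numbers, so no count model was used. The deposited sequencing summary gives 39854257 to 53308952 reads per library, of which 95.4% to 96.3% were mapped. FPKM keep no counting error, so no counting interval is given. In the table, 4 pooled columns were not used, and 9 libraries of the summary belong to other samples. The authors' fold changes and p-values were not used.

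Genes with at least 1 FPKM in at least 4 libraries were tested on log2(FPKM + 1) in R 4.3.3 with limma 3.58.1 (moderated by empirical Bayes, variance trend, threshold 0.05 on the adjusted p), and the script was tested on simulated data. The 10 genes and the lists, written from general knowledge, were chosen with earlier results of these data known. The genes named are the 10, every listed ligand, receptor and binding protein, and of each other list up to 4 called genes with the smallest p, or up to 3 of the highest mean FPKM where none was called, plus the 3 genes of nearest pattern to each of the 3 most changed genes. Genes outside this rule (IGF2-AS, PAPPA, SLC2A4 and the markers) were named after their values were seen, and 1 gene that the rule would name is not reported here. Alternatives were a pseudocount of 0.1, no filter, a minimum of 10 normalized counts per library, each library left out in turn, a replicate block, the normalized counts as input, FPKM rescaled by median ratios, no variance trend and, added after the data were seen, the hepatic marker covariate. Positions are from GENCODE 44 (GRCh38) and promoters from RefSeq (GRCh38.p14).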

Additional observations from a re-analysis of the deposited data

Results flagged for a closer look

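In 98 groups of 4 libraries, each gene named by the rule in each group, 3 held a library whose gap to the nearest other library, as a share of the range of the group, was over Dixon's critical value for 4 values. Chance gives about 1 in 20. IGF2 read 965.8 FPKM in H/R+BA replicate 3, against 861.5 to 869.6 FPKM in the other H/R+BA libraries. HK2 read 30.2 FPKM in H/R replicate 2, against 25.8 to 26.4 FPKM in the others. LAPTM5, named for its likeness to IGFBP4, read 1.89 FPKM in H/R+BA replicate 1, against 2.14 to 2.18 FPKM. Without these libraries IGF2 was still not called and HK2 and LAPTM5 were still called higher.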

How the results depend on the processing

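The 5 calls among the 10 genes (IGFBP3, IGFBP4 and IGFBP5 higher, INSR and IGF1R lower) kept their direction and side of the threshold in all 16 alternatives, with the highest adjusted p for INSR at 0.0444 under the replicate block. Leaving out single libraries, the numbers called stayed at 3 and 2, and the log2 fold changes ran from 1.05 to 1.36 for IGFBP5, 0.79 to 0.93 for IGFBP3, 0.54 to 0.62 for IGFBP4, -0.60 to -0.51 for IGF1R and -0.40 to -0.30 for INSR. The exception among the uncalled genes was IRS2, which became called lower with the hepatic marker covariate (-0.36, adjusted p = 0.00461). Its log2 fold change was -0.27 in the main fit, and its residual spread was also smaller with the covariate. The covariate raised the number called over all genes from 3546 to 4997. Over all genes, the number higher was 1958 and ran from 1269 (without H/R+BA replicate 2) to 1945 without single libraries, and the number lower was 1588 and was 2595 on the deposited normalized counts, a cause that was not tested. Same-numbered libraries did not deviate together (correlations of 0.24, -0.24, -0.25 and -0.01). With 4 libraries a group this cannot exclude that they shared a culture or day. With the replicate block 2531 genes were called in place of 3546. Median-ratio rescaling moved the median log2 fold change to -0.01. Of the 39 other named genes and like-pattern genes, 1 gained a call (IGFBP1, with the covariate) and 4 lost theirs in some alternatives (ADAM9, TSC2, SOCS3 and STXBP3), while PAPPA2 was under the filter and not tested in the 4 alternatives that left out an H/R+BA library. Among the list counts, the FOXO targets higher were 3 in place of 6 with no filter and with the replicate block, and the FOXO targets lower were 4 in place of 7 with the replicate block and 11 with the covariate. The PI3K, AKT and mTOR effectors lower were 5 in place of 8 with the replicate block, the glucose uptake genes higher were 5 in place of 3 with the covariate, and the insulin-induced genes lower were 4 in place of 2 on the normalized counts. With 4 libraries a group, intervals of uncalled genes such as IGFBP2 and IGFBP7 were wide, and no change was detectable at this spread.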
